A study of Mus musculus with 9 samples.

Results

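The 9 genes described here regulate or mark the germinal centre and plasma cell stages of B cells: Bcl6, Mef2b, S1pr2, Irf4, Prdm1, Xbp1, Sdc1, Jchain and Tnfrsf17. They were chosen by name from known biology and not by their methylation, and are 9 of the 16457 autosomal protein-coding genes that had a listed start in RefSeq. DNA methylation was measured at single CpGs by whole-genome bisulfite sequencing, in which unmethylated cytosines are converted and methylated ones are not, in B cells of the mouse spleen. The cells were bulk B cells left after magnetic removal of other cells, from untreated mice homozygous (HOM) or heterozygous (HET) for the point mutation Ile5482Asn of Kmt2d, or from wild-type mice (WT). Kmt2d encodes a methyltransferase that places H3K4 monomethylation at enhancers. The mutagen ENU is named in the HOM and HET columns but not in the WT column, so other effects of mutagenesis and the Kmt2d genotype cannot be told apart. The labels list 2 B cell samples per genotype, but the table held 1 pair of count columns per genotype, called a library below. The sources used here do not say whether such a pair is 1 sample or a pool of both. No difference below therefore has a replicate check.

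In a germinal centre, B cells divide, mutate their antibody genes and are selected for affinity. Bcl6 holds cells in that state by repressing other genes, and Prdm1, which encodes the repressor Blimp-1, ends it and starts plasma cell differentiation. Unmethylated CpG-rich starts are usual and do not by themselves show that a gene is transcribed. CpG-poor starts are often methylated until the gene is used. Most B cells of an unimmunised spleen are neither germinal centre cells nor plasma cells.

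The libraries held 215454437 CpG reads in HOM, 282430649 in HET and 200824258 in WT, or 9.85, 12.9 and 9.18 reads per CpG over 21875444 CpGs. Far from CpG islands (over 4000 bp), the level was 78.1% in HOM, 80.9% in HET and 81.6% in WT, so a difference of a few points below WT was general in HOM. Relative to their own mean depth, islands were covered at ratios of 0.836 in HOM, 0.731 in HET and 0.755 in WT. A level pooled over a region moves with such uneven coverage, and a difference is therefore also given CpG by CpG (a Mantel-Haenszel difference, each CpG compared with itself). Start windows of 4 measured B cell marker genes had median levels of 29.9% in HOM, 25.8% in HET and 29.4% in WT, all 4 below 50% in each library. Start windows of 7 T cell marker genes had medians of 54.6% in HOM, 72.0% in HET and 53.2% in WT, with ranges of 6.06 to 63.7%, 3.89 to 79.9% and 3.70 to 68.6%. Those of 8 myeloid marker genes had medians of 51.3% in HOM, 59.95% in HET and 51.4% in WT. In each library 3 of the 8 were below 50%. Erythroid and platelet markers (5 tested) had 40.7% in HOM, 46.8% in HET and 43.5% in WT, 3 below 50% in each. Germinal centre markers (5 tested) had medians of 19.6%, 19.1% and 22.7% in HOM, HET and WT. Plasma cell markers (5 tested) had 4.08%, 8.62% and 9.20% in the same order, 3 below 50% in each library. Their ranges were wide, at 2.14 to 83.4% in HOM, 1.98 to 83.9% in HET and 1.75 to 87.7% in WT. Both of these lists share genes with the 9 and had medians below those of the B cell list, so such levels do not by themselves identify the cells. In bulk DNA a different mix of cells and a different level within 1 cell type cannot be told apart, and the part that other cells play in the results below was not tested.

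The promoters of the 9 genes are of 2 kinds, as the sequences show. Each is the stretch from 250 bases before to 50 after the RefSeq listed start, written 5′ to 3′ on the strand of the gene (RefSeq, GRCm38.p6), with every CpG in capitals. Bcl6 and Prdm1 are shown as the least methylated starts, S1pr2 and Mef2b as genes with differences between libraries nearby, and Jchain and Tnfrsf17 as the methylated starts.
Bcl6, chr16:23988803-23989102, minus strand: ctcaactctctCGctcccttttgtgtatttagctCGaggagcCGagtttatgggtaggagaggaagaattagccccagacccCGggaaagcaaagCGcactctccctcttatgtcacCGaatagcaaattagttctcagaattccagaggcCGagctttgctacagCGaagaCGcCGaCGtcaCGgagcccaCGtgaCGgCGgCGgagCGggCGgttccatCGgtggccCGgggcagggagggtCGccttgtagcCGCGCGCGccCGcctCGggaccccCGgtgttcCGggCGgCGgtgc
Prdm1, chr10:44458699-44458998, minus strand: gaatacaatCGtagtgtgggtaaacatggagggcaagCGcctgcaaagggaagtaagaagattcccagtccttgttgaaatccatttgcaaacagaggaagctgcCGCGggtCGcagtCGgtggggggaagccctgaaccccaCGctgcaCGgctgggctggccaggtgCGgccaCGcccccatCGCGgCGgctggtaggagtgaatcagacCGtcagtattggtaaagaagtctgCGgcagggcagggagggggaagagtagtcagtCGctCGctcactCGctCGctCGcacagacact
S1pr2, chr9:20976744-20977043, minus strand: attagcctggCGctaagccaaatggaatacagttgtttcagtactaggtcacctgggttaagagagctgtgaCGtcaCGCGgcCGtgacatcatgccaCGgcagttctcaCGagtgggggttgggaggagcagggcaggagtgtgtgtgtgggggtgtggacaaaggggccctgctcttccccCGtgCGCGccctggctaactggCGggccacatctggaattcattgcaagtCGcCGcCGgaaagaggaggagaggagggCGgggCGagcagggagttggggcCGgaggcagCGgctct
Mef2b, chr8:70152511-70152810, plus strand: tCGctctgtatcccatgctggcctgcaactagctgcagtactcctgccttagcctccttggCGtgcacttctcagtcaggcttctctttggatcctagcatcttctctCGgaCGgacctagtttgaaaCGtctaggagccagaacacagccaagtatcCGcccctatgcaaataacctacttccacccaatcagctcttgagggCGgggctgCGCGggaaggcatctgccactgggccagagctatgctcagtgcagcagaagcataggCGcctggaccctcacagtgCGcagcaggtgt
Jchain, chr5:88527848-88528147, minus strand: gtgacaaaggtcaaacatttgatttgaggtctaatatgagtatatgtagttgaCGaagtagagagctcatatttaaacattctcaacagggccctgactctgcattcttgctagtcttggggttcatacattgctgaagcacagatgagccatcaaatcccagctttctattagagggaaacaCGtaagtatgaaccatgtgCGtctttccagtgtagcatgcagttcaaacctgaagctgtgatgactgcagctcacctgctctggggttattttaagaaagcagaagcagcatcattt
Tnfrsf17, chr16:11313559-11313858, plus strand: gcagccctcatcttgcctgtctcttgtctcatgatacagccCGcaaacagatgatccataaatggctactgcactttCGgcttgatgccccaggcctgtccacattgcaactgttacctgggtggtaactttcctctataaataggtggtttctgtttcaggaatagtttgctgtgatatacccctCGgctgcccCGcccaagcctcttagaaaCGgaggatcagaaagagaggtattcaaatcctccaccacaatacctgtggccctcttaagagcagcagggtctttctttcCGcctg
The Bcl6 stretch has 31 CpGs, Prdm1 20, S1pr2 18, Sdc1 14, Mef2b 11, Irf4 11 and Xbp1 10, against a median of 7 over 32851 RefSeq promoters. Tnfrsf17 has 6 and Jchain 3, and 31.4% of all promoters have 3 or fewer. Levels over the 7 CpG-rich stretches lay between 0 and 2.42% in every library. This is usual: over all stretches with enough reads the median was 0.592% in HOM, 0.623% in HET and 0.625% in WT. Of those stretches 78.9% in HOM, 78.6% in HET and 78.7% in WT lay below 10%.

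At single CpGs the CpG-rich promoters were close to empty of methylation. All 31 CpGs of the Bcl6 stretch had no methylated read in HOM, 30 had none in HET and all 31 had none in WT. For Prdm1 the count of CpGs at 0 was 20 of 20 in HOM, 19 in HET and 20 in WT. Irf4, the transcription factor required for plasma cells, had 11 of 11 CpGs at 0 in HOM, 10 in HET and 11 in WT. Coverage was thinnest at Xbp1, the transcription factor of the unfolded protein response, where 4 of 10 CpGs in HOM and 5 in WT had no read. The Xbp1 and Jchain stretches had fewer than 30 reads in at least 1 library and were not tested, and none of the 7 tested stretches differed between libraries by at least 10 points with an adjusted p below 0.05. Of all promoter stretches 0.287% did in HOM against WT, 0.278% in HET against WT and 0.475% in HOM against HET.

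The GC box (GGGCGG, either strand) was found in 6 of the 10 promoter stretches of these genes, Bcl6 having a second listed start, and in 35.7% of all promoters. The cAMP response element (TGACGTCA, its own reverse complement) was in 1, that of S1pr2, 181 bases before the start, and in 1.79% of all promoters. Its CpG had no methylated read in 15 HOM, 23 HET and 18 WT reads. The E-box CACGTG, also its own reverse complement, was in 1, that of Bcl6, 60 bases before the start, and in 7.15% of all promoters. The box CCAAT was in 3 stretches and in 37.4% of all promoters. Of the GC boxes, that of Tnfrsf17 alone had a mostly methylated CpG, with 11 of 15 reads in HOM, 11 of 11 in HET and 4 of 6 in WT. These matches are letters in a window and do not show a factor at the site.

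The wider start windows (1000 bp before to 500 bp after the start) spread from nearly 0 to over 80%. Bcl6 was lowest, with 0.113% in HOM, 0.568% in HET and 0.691% in WT (887, 1408 and 868 CpG reads). Prdm1 came next, with 2.14% in HOM, 1.98% in HET and 1.75% in WT. In each library Bcl6 lay below Prdm1 beyond the 95% counting interval of the difference. Prdm1 was separated from the next gene in HET and WT but not from Xbp1 in HOM. Xbp1 had 3.61% in HOM, 3.79% in HET and 7.31% in WT, and S1pr2, the receptor that keeps germinal centre B cells within the follicle, had 4.08% in HOM, 5.14% in HET and 6.57% in WT. Irf4 had 9.53% in HOM, 11.6% in HET and 11.5% in WT. Those 5 genes differed from WT by under 4 points in either mutant library.

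Of the 5 plasma cell markers among the 9 genes, Jchain and Tnfrsf17 had methylated starts. The other 3, Prdm1, Xbp1 and Sdc1, lay below 10% in each library. Jchain, whose protein joins IgM and IgA chains into polymers, had 79.6% in HOM, 83.9% in HET and 81.2% in WT over only 10 CpGs (54, 87 and 80 reads). Tnfrsf17, which encodes the survival receptor BCMA, had 83.4% in HOM, 81.3% in HET and 87.7% in WT over 18 CpGs. The levels of the pair were not separated from each other in any library, and both stood above the other 7 genes in all of them. Over all genes the median start window was 10.03% in HOM, 11.3% in HET and 11.04% in WT.

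**Figure D1:**
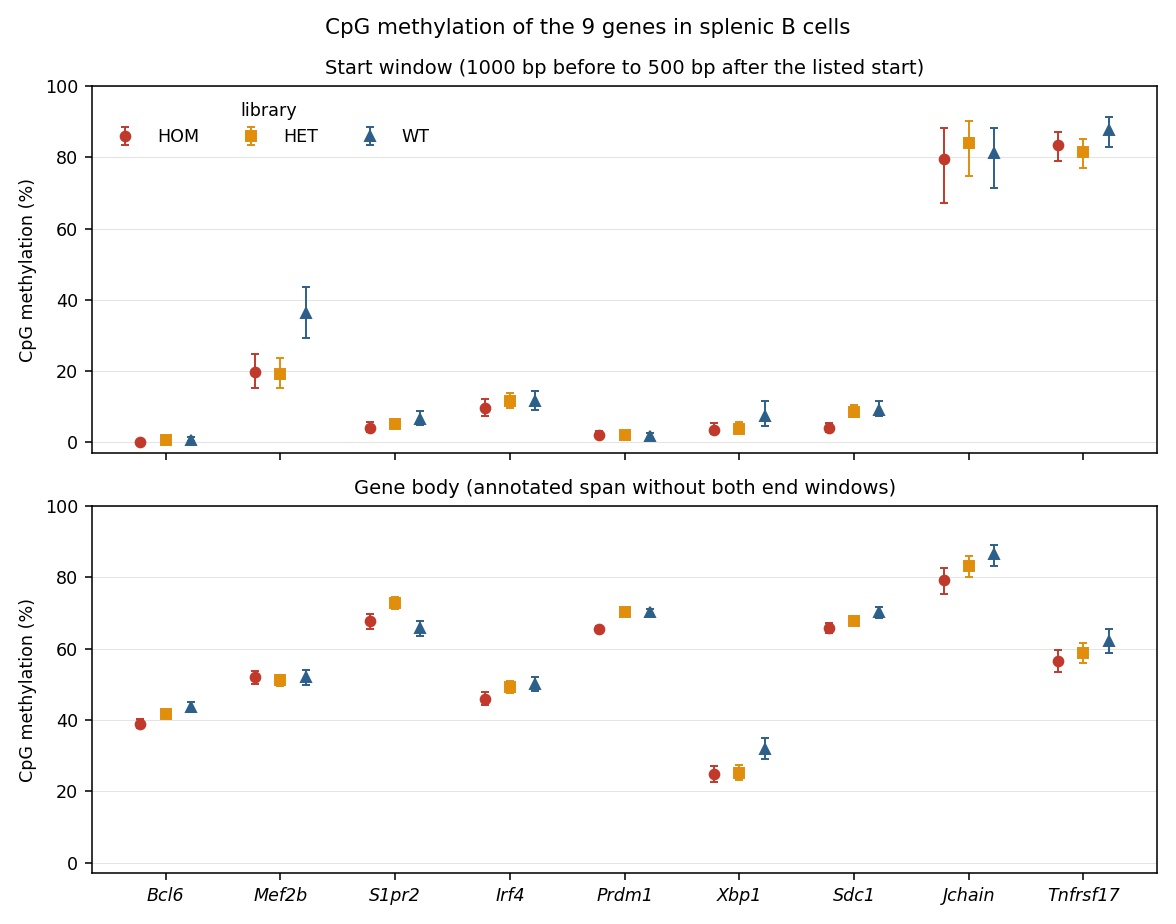
CpG methylation in percent of the start window (upper panel) and gene body (lower panel) of each gene in the HOM, HET and WT libraries. Points are levels pooled over CpG reads and bars are 95% Wilson intervals, which cover counting error only. Jchain and Tnfrsf17 have starts near 80%, Mef2b is intermediate, and the other 6 genes lie below 12%.

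In HOM against WT, Mef2b and Sdc1 had the start windows with the largest differences. Sdc1, which encodes the plasma cell surface marker CD138, had 4.08% in HOM, 8.62% in HET and 9.20% in WT (932, 1091 and 739 reads). Its difference was -5.12 points in HOM against WT (95% interval -7.67 to -2.74) and -4.54 points in HOM against HET. In HOM against WT the adjusted p was 0.000936 (Fisher's exact test on the reads, adjusted over 15131 start windows by Benjamini-Hochberg). CpG by CpG, the difference of HOM from WT was -2.25 points (-3.96 to -0.54), so it stayed under 10 points by either route.

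Mef2b, the transcription factor that activates Bcl6 in germinal centre cells, had 19.6% in HOM, 19.1% in HET and 36.3% in WT, over 31 CpGs with 270, 325 and 171 reads. The mutant libraries were close to each other and WT stood above both. HOM differed from WT by -16.6 points (-25.2 to -8.07, adjusted p = 0.00325, Fisher's exact test) and HET by -17.2 points (-25.6 to -8.93, adjusted p = 0.00193). These 2 contrasts share the WT library and are not independent. The promoter stretch, which was unmethylated, took 56.3% of the window's reads in HOM, 47.7% in HET and 38.0% in WT. Compared CpG by CpG, they differed from WT by -8.04 points in HOM (-14.5 to -1.60) and -7.48 points in HET (-13.4 to -1.57), which no longer passed the call of 10 points with an adjusted p below 0.05.

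With levels pooled over reads, 1 of the 9 genes (Mef2b) passed that call as lower in HOM than in WT, where 3.09% of all start windows did, and the same gene as lower in HET than in WT, where 1.22% did. None was lower in HOM than in HET, where 2.53% of windows were. None was higher, where 1.02%, 1.34% and 0.634% of windows were in the HOM to WT, HET to WT and HOM to HET comparisons. The median difference of the 9 genes from WT was -2.49 points in HOM and -0.59 points in HET, beside -0.58 and -0.002 over all genes. CpG by CpG none passed, where 2.01%, 0.892% and 1.5% of windows did in either direction in the HOM to WT, HET to WT and HOM to HET comparisons, and the medians were -1.28 points in HOM and -0.08 points in HET.

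**Figure D2:**
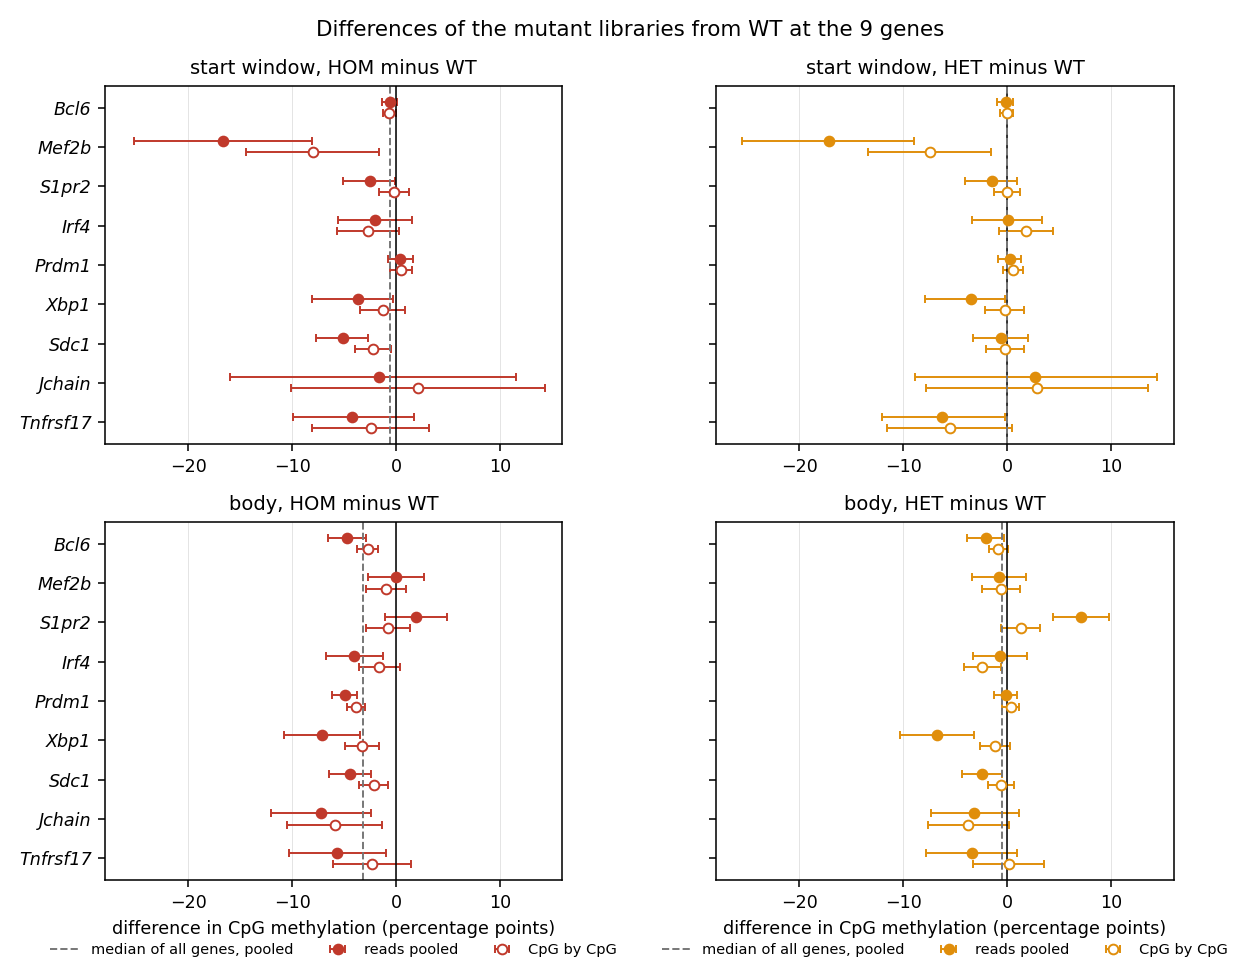
Difference in CpG methylation from WT, in percentage points, for HOM (left) and HET (right) at the start window (top) and gene body (bottom) of each gene. Filled points are pooled over reads and open points compare each CpG with itself, bars are 95% intervals of counting error, and the dashed line is the pooled median of all genes. Mef2b at the start, and Xbp1 and S1pr2 in the body, move most between the 2 ways of comparing.

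In gene bodies (the annotated span without both end windows) the order was different. Xbp1 had the lowest body in each library, with 24.8% in HOM, 25.1% in HET and 31.9% in WT, and Jchain the highest, with 79.2% in HOM, 83.2% in HET and 86.4% in WT. Bcl6 had 38.9% in HOM, 41.6% in HET and 43.7% in WT. A body takes in any part of the low-methylated stretch at a start that lies more than 500 bp past it. In Xbp1 the 1 kb bin centred 1.5 kb past the start had 7.61% in HOM, 8.61% in HET and 16.5% in WT. The bin centred at 2.5 kb had 83.6%, 91.8% and 95.3%. The median body of all genes was 77.0% in HOM, 79.8% in HET and 80.5% in WT, and the median of the 9 was lower, at 56.6%, 58.8% and 62.3% in HOM, HET and WT. The part that such stretches play in the lower median was not tested.

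The body of Prdm1, which held the most CpG reads of the 9, had 65.4% in HOM, 70.2% in HET and 70.3% in WT over 1066 CpGs (12027, 16521 and 11380 reads). The annotated span of Prdm1 begins far upstream of the listed start used here, so this body also takes in DNA before that start. HOM differed from WT by -4.94 points (-6.13 to -3.74, adjusted p = 7.91e-15, Fisher's exact test) and from HET by -4.79 points, while HET differed from WT by -0.15 points (-1.24 to 0.94). With each CpG set against itself, HOM differed from WT by -3.85 points (-4.74 to -2.96). HOM thus stood below both other libraries in this body. The median difference of HOM from WT over all bodies was -3.21 points pooled and -2.87 points CpG by CpG. When pooled, 24.2% of all bodies had a lower difference than Prdm1.

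Of the other bodies, HOM was below WT in Bcl6 (-4.74 points), Irf4 (-4.05), Xbp1 (-7.13), Sdc1 (-4.46), Jchain (-7.20) and Tnfrsf17 (-5.66), each with an interval below 0. Mef2b had 51.9% in HOM, 51.1% in HET and 51.9% in WT, with no difference from WT beyond its interval in either mutant. S1pr2 had 67.6% in HOM, 72.8% in HET and 65.7% in WT. Its HOM library differed from WT by 1.90 points pooled and -0.78 points CpG by CpG, both with intervals that included 0. Its HET library was 7.12 points above WT when pooled (4.42 to 9.83, adjusted p = 5.84e-06, Fisher's exact test) but 1.27 points above it CpG by CpG (-0.65 to 3.19).

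**Figure D3:**
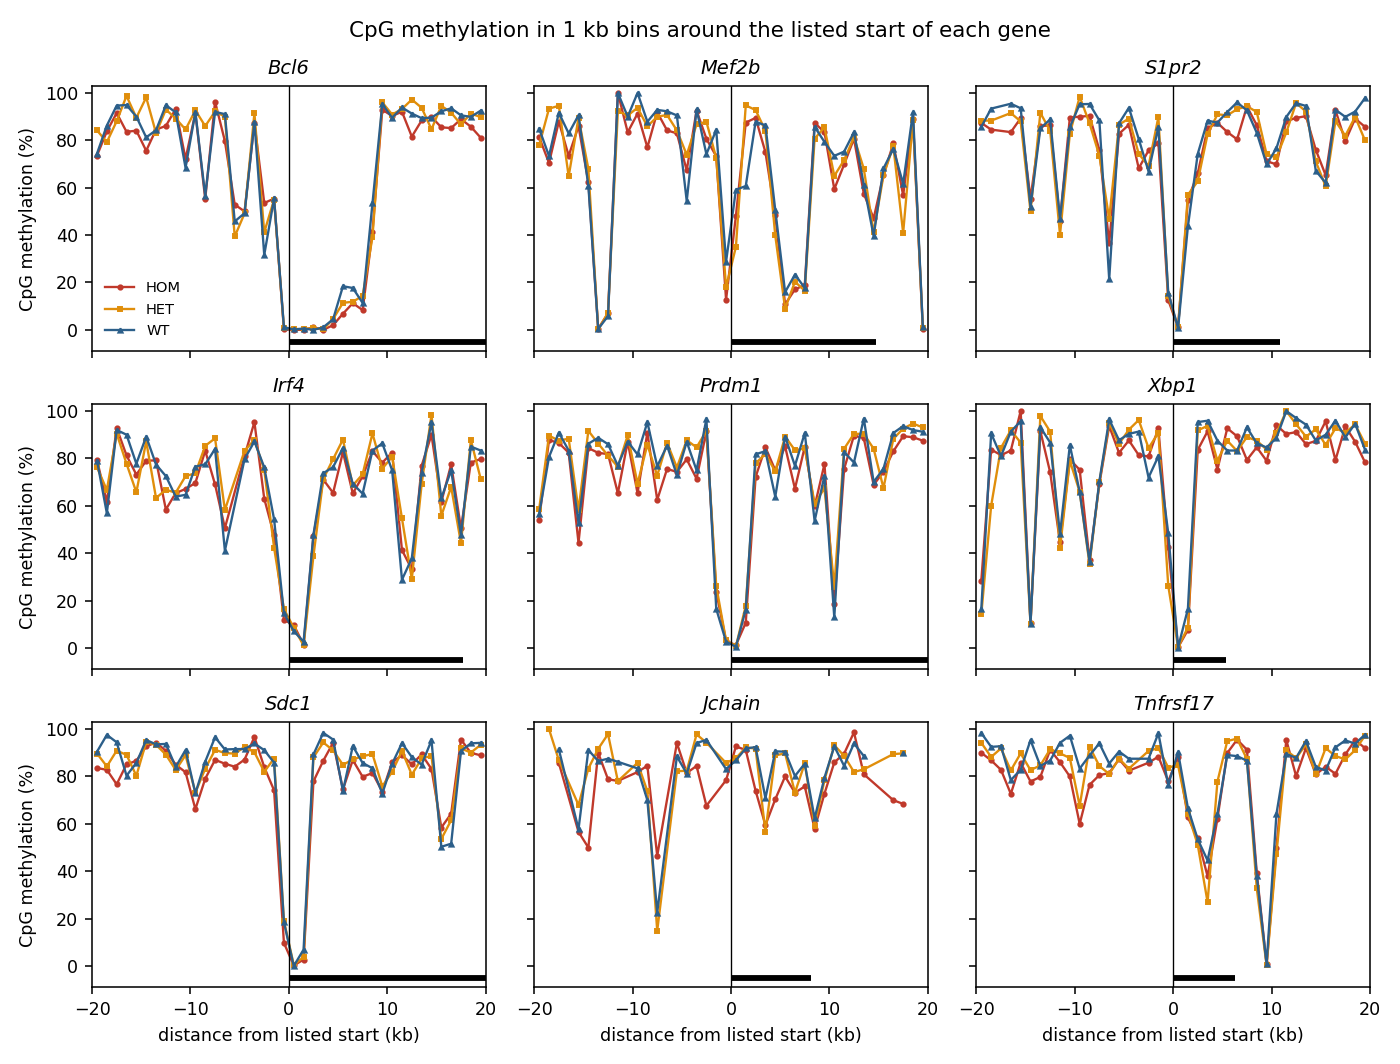
CpG methylation in percent in 1 kb bins from 20 kb before to 20 kb after the listed start of each gene, in HOM, HET and WT. The black bar below each panel is the annotated gene from its listed start, and bins with fewer than 10 reads are left blank. The CpG-rich starts show as wells of differing width, widest at Bcl6, while Jchain and Tnfrsf17 have their low points away from the start.

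No body passed the call of 10 points with an adjusted p below 0.05 in any comparison. Over all genes, bodies were lower by that call in 2.85% in HOM against WT, in 0.82% in HET against WT and in 2.02% in HOM against HET. In HOM the difference from WT was below 0 in 8 of the 9 genes, and the interval excluded 0 in 7, beside 86.8% and 62.7% of all genes. The median of the 9 was -4.74 points, against -3.21 points for all genes. CpG by CpG all 9 were below 0 and 5 had an interval below 0, beside 91.2% and 67.6% of all genes. No body passed the call by that route, where 1.23%, 0.331% and 0.958% of all bodies did in either direction in the HOM to WT, HET to WT and HOM to HET comparisons. The medians of HOM from WT were -2.30 points for the 9 and -2.87 points for all genes. In that comparison the largest shift was Jchain with -5.91 points (-10.5 to -1.34), Bcl6 had -2.71 points, Xbp1 -3.27, Sdc1 -2.14, Tnfrsf17 -2.30, Irf4 -1.60, Mef2b -0.96 and S1pr2 -0.78. For HET against WT the median of the 9 was -2.07 points pooled and -0.63 points CpG by CpG, beside -0.48 and -0.44 over all genes.

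At the far end of the genes (500 bp inside to 1000 bp outside the annotated end opposite the start), Bcl6 had 79.4% in HOM, 88.8% in HET and 90.5% in WT (399, 473 and 325 reads). HOM differed from WT by -11.01 points (-16.1 to -5.81, adjusted p = 0.00341, Fisher's exact test), and by -11.3 points CpG by CpG. Prdm1 had 77.7% in HOM, 90.1% in HET and 86.5% in WT, and HOM differed from HET by -12.4 points (-19.4 to -5.64, adjusted p = 0.0109, Fisher's exact test) and by -12.7 points CpG by CpG. Sdc1 had 82.6% in HOM, 94.3% in HET and 94.4% in WT over 6 CpGs, a difference of HOM from WT of -11.9 points (-21.9 to -0.29) whose adjusted p of 0.266 did not pass. Thus 1 of the 9 genes was lower in HOM than in WT, where 4.45% of all far ends were (4.06% CpG by CpG), and 1 was lower in HOM than in HET, where 3.88% were (2.73% CpG by CpG). None passed in HET against WT, where 1.93% of far ends did in either direction.

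Over each gene with 20 kb on both sides, HOM was below WT in all 9 genes, as it was in 93.4% of all genes. The pooled differences ran between -7.41 points at Xbp1 and -1.19 points at Mef2b, with a median of -3.58 points beside -3.38 points for all genes. With CpGs matched they ran between -3.74 points at Sdc1 and -1.36 points at Xbp1, all with intervals below 0. By that route 97.4% of all genes were below 0 and 87.5% had an interval below 0. The matched median was -2.77 points beside -2.68 points for all genes. The pooled and the CpG by CpG difference were furthest apart at Xbp1. The downstream flanks of Bcl6 (-6.08 points), Irf4 (-5.63), Prdm1 (-5.49) and Sdc1 (-4.78) and the upstream flank of Tnfrsf17 (-6.01) had the lowest CpG by CpG differences of HOM from WT among the flanks. No single CpG with at least 5 reads in every library, among 172 at Jchain up to 1224 at Prdm1, was at most 10% in one library and at least 80% in another, and 0.0554% of such CpGs were on all autosomes.

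Low-methylated runs were stretches with 4 or more CpGs and a length of 100 bp or more whose running level over 3 CpGs lay below 50% in the mean of the libraries. The genes and their flanks held 51 runs, of which 48 had enough reads to compare, and 13 of the 51 lay over a CpG island. Every one of the 7 CpG-rich starts lay in a run, and these differed in width. The Bcl6 run was 5803 bp long with 245 CpGs and had 0.654% in HOM, 1.48% in HET and 1.53% in WT. It was followed inside the gene by a further run of 3051 bp, which held the second listed start, with 10.2% in HOM, 12.1% in HET and 14.0% in WT. The Prdm1 start run was 3608 bp long, that of Irf4 2896 bp, that of Sdc1 2414 bp, that of Xbp1 2206 bp and that of S1pr2 1607 bp. Mef2b had the shortest, 882 bp with 25 CpGs, which also overlaps the annotated gene Gm45929.

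Prdm1 had the most runs, 13, of which 8 lay within or across the edge of the annotated gene. The run with the most CpGs was not at the listed start (chr10:44458748) but far before it, at the upstream edge of the annotated span. It spanned chr10:44526562-44530133 (GRCm38, 133 CpGs), with 5.26% in HOM, 3.70% in HET and 4.81% in WT. Tnfrsf17 had 2 runs within the gene, one 1396 bp past the start with 19.3% in HOM, 24.2% in HET and 19.7% in WT, and one 3605 bp past it with 14.2% in HOM, 13.5% in HET and 20.9% in WT. Jchain had 2 runs, neither inside the gene nor over an island. The nearer one lay 6594 bp upstream, with 21.6% in HOM, 5.19% in HET and 8.33% in WT (37, 77 and 36 reads), a difference that did not pass the call.

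A run upstream of S1pr2 differed from WT in both mutant libraries (chr9:20983038-20983500, GRCm38, 6 CpGs, 6245 bp from the start and in no annotated protein-coding gene). Its level was 27.6% in HOM, 41.8% in HET and 8.59% in WT (152, 146 and 128 reads). HOM was 19.0 points higher than WT (10.1 to 27.5, adjusted p = 0.00244, Fisher's exact test over 74309 runs) and HET 33.2 points higher (23.3 to 42.1, adjusted p = 1.14e-07). Compared CpG by CpG, HOM stood 15.1 points above WT (7.05 to 23.2) and HET 31.0 points above it (21.95 to 40.04), and HOM differed from HET by -15.2 points. Each of the 6 CpGs was highest in HET, intermediate in HOM and lowest in WT. The 4 CpGs in its middle had 11.5 to 26.1% in HOM, 27.3 to 42.9% in HET and 0 to 4.35% in WT. CpGs on 1 read are not independent, and with counts divided by the mean number of CpGs per read the difference of HET from WT still passed the call and that of HOM did not.

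**Figure D4:**
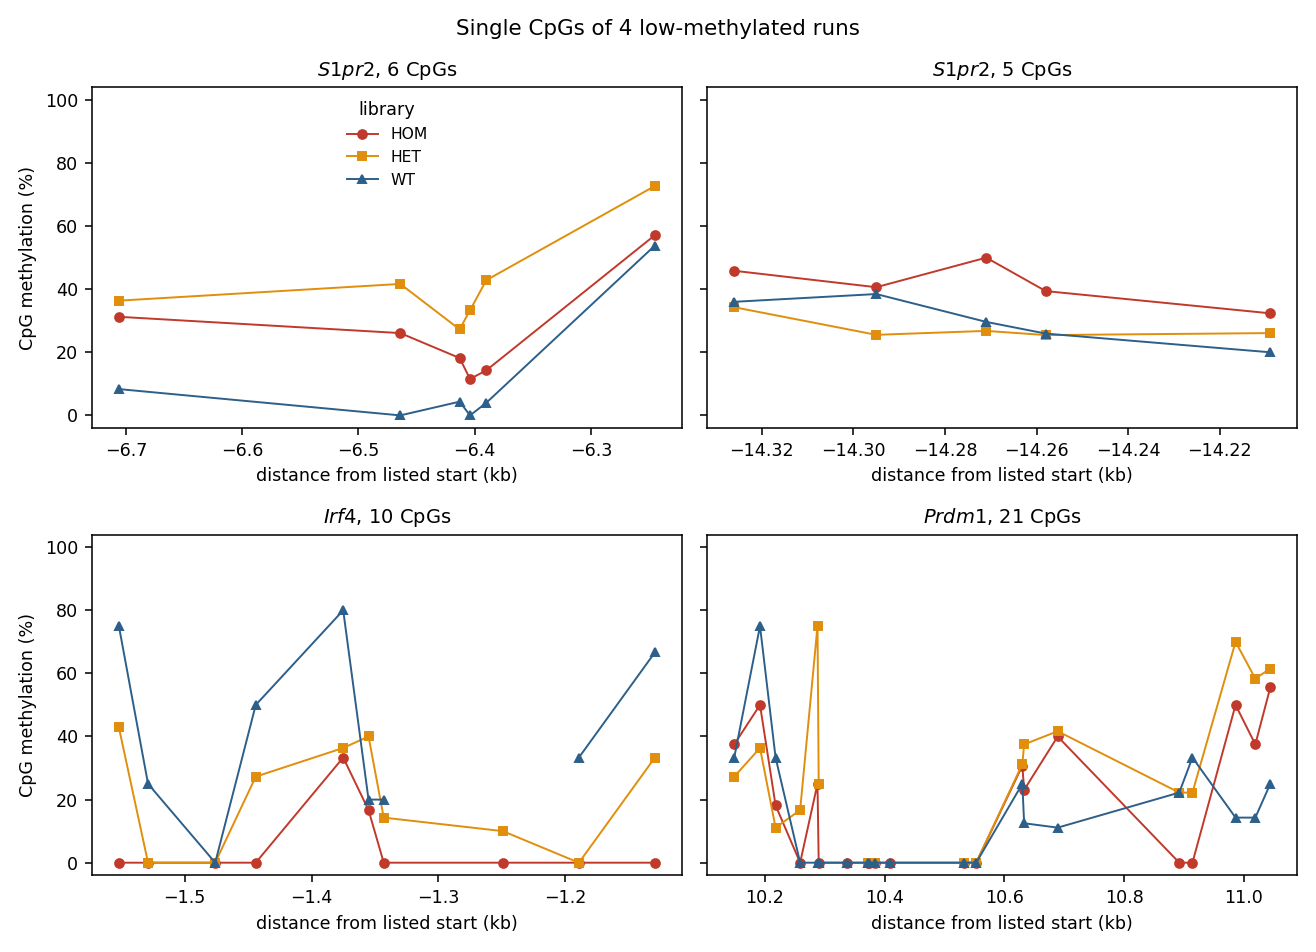
CpG methylation in percent at the single CpGs of 4 low-methylated runs against the distance in kb from the listed start of S1pr2, Irf4 or Prdm1, in HOM, HET and WT (a gap is a CpG with no read). In the S1pr2 run of 6 CpGs, HET lies highest and WT lowest at each CpG, and in the Irf4 run HOM is at 0 at most CpGs.

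Farther upstream of S1pr2, a run 14209 bp from the start (chr9:20991002-20991120, 5 CpGs) had 41.5% in HOM, 27.2% in HET and 30.4% in WT. HOM was 14.3 points higher than HET (4.83 to 23.7, adjusted p = 0.0468, Fisher's exact test), and 5 of 5 CpGs were higher in HOM. The call was lost with counts divided by the CpGs per read. The start run of S1pr2 itself had 3.62% in HOM, 4.81% in HET and 3.09% in WT.

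Next to the Irf4 start, a run 1128 bp upstream (chr13:30747681-30748105, 10 CpGs) had 8.11% in HOM, 20.5% in HET and 42.5% in WT. Coverage was thin, at 37, 88 and 40 reads. HOM differed from WT by -34.4 points (-50.6 to -15.2, adjusted p = 0.0152, Fisher's exact test) and by -33.9 points CpG by CpG, with 8 of 9 CpGs lower and 1 equal. HET differed from WT by -22.05 points, which did not pass (adjusted p = 0.159, Fisher's exact test). With counts divided by the CpGs per read the interval of HOM against WT ran from -60.7 to 0.52 points and the call was lost.

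Inside Prdm1, a run 10148 bp past the start (chr10:44447704-44448600, 21 CpGs) had 19.3% in HOM, 29.1% in HET and 12.2% in WT. HET was 16.9 points higher than WT (8.27 to 25.03, adjusted p = 0.0077, Fisher's exact test) and 13.5 points higher CpG by CpG, although only 9 of 19 CpGs were higher, 4 were lower and 6 were equal. With counts divided by the CpGs per read the call was lost. Upstream of Xbp1, a run 19087 bp from the start (chr11:5500114-5501554, 24 CpGs) had 23.4% in HOM, 13.1% in HET and 14.0% in WT. HOM was 10.3 points higher than HET (5.69 to 15.1, adjusted p = 0.000671, Fisher's exact test) and 9.89 points higher CpG by CpG, just under the 10 points. Dividing counts by the CpGs per read also lost this call. The start run of Mef2b had 3.12% in HOM, 3.29% in HET and 15.2% in WT, -12.1 and -11.9 points from WT when pooled, which passed, and -7.65 points in both CpG by CpG, which did not. In HOM against WT 5 of its 22 CpGs were lower, 2 higher and 15 equal. In HET against WT 5 of 22 were lower, 1 higher and 16 equal. With counts divided by the CpGs per read both calls of this run were lost.

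**Figure D5:**
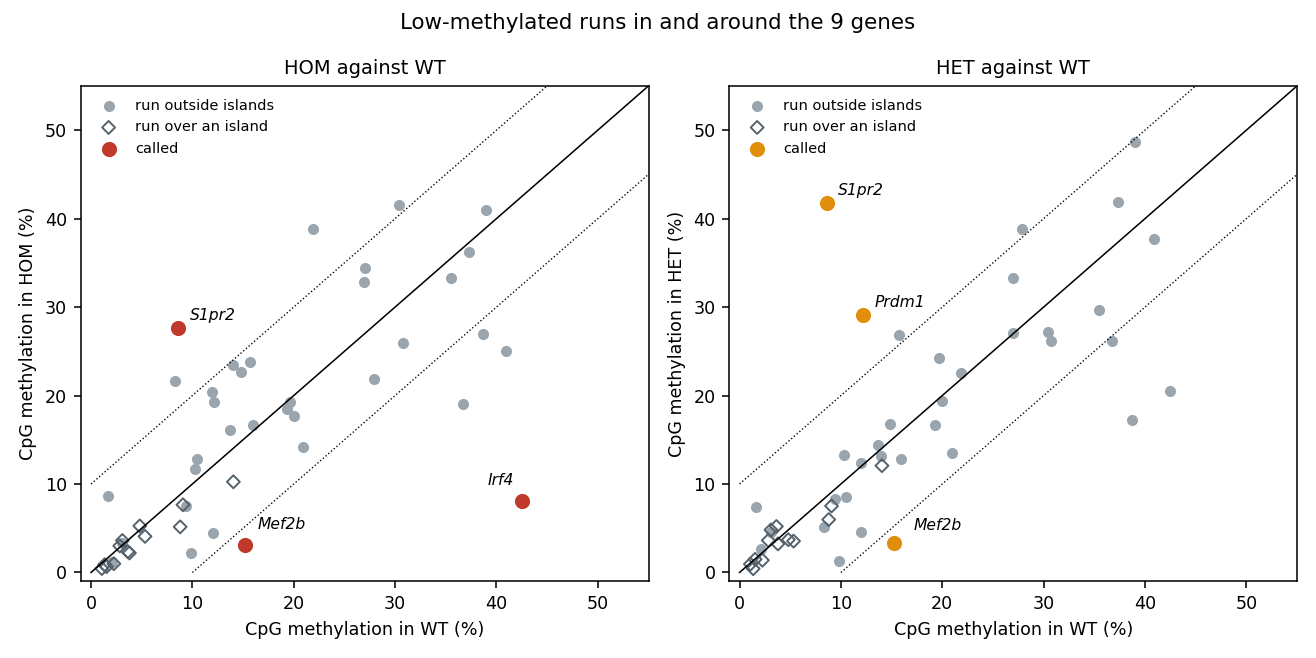
CpG methylation in percent of the 48 low-methylated runs in HOM (left) or HET (right) against WT. Each point is a run, diamonds lie over CpG islands, dotted lines mark 10 points above and below equal levels, and coloured points passed the call. The S1pr2 run stands above the upper line in both panels, and runs over islands lie near equal levels.

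Pooled over reads, the HOM to WT comparison called 1 of the 48 runs as higher and 2 as lower, where 3.12% and 1.77% of all runs were. In HET against WT 2 were called higher and 1 lower, where 1.76% and 2.2% were, and in HOM against HET 2 were called higher and none lower, where 3.20% and 1.76% were. These counts are near the background shares and are no result about the 9 genes. The median difference of the 48 runs from WT was -0.70 points in HOM and -0.72 points in HET (-0.42 and -0.47 CpG by CpG), beside -0.06 and 0.10 points over all runs (-0.01 and 0.06 CpG by CpG). Compared CpG by CpG, 1 run was called higher and 1 lower in HOM against WT, where 3.75% and 1.98% of runs were. In HET against WT 2 were called higher and none lower, where 2.33% and 2.31% were, and in HOM against HET 2 higher and 1 lower, where 3.53% and 2.17% were.

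The methylated DNA just outside the unmethylated starts was lower in HOM at most edges, as it was over all genes. In the 500 bp beyond each edge of the 7 start runs, 13 edges had reads in each library, and HOM was below WT at 11 of them with a median of -11.1 points (-10.9 CpG by CpG). Over 19165 edges of all runs that hold a listed start, HOM was below WT at 64.8%, with a median of -3.94 points (-3.80 CpG by CpG). The interval lay below 0 at 4 of the 13 edges and at 12.9% of all edges. The upstream edge of Irf4 had 32.4% in HOM, 60.7% in HET and 53.7% in WT, and that of Sdc1 34.9% in HOM, 57.9% in HET and 54.9% in WT. These 500 bp at Irf4 lie between its start run and the called Irf4 run upstream. Reads of 150 bp can reach into both, so the edge and that run are not separate observations. At Sdc1 the difference of HOM from WT was -20.02 points pooled and -11.7 points CpG by CpG. The downstream edge of Irf4 had 66.3% in HOM, 74.3% in HET and 81.7% in WT, and that of Prdm1 55.9% in HOM, 67.6% in HET and 68.3% in WT. HOM was above WT at the upstream edges of Prdm1 (17.1 points, -5.26 to 37.2) and Bcl6 (8.18 points, -15.6 to 28.1), with intervals that included 0. HET was below WT at 7 of 13 edges and at 51.4% of all edges. Its median was -0.72 points pooled and -4.06 points CpG by CpG, beside -0.35 and -0.33 points over all edges. The interval of HET against WT lay below 0 at 1 of the 13 edges and at 6.02% of all edges. The edges hold 3 to 13 CpGs each and 15 to 401 reads, and were placed where the mean of the libraries crosses the run limit, so they carry no test here.

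Of 33 further genes of the germinal centre programme, 26 could be tested. At their start windows 1 was called higher and none lower in HOM against WT, where 1.02% and 3.09% of all start windows were: Cd38, an ectoenzyme of the B cell surface, with 28.4% in HOM, 19.1% in HET and 16.5% in WT. That difference was 11.9 points pooled and 3.50 points CpG by CpG. In HET against WT the call was met by Il21r, the receptor for the follicular helper cytokine IL-21, with 14.6% in HOM, 28.1% in HET and 10.8% in WT, and by Pou2af1, the B cell coactivator OCA-B, with 23.9% in HOM, 16.3% in HET and 28.4% in WT. HET differed from WT by 17.3 points at Il21r and by -12.1 points at Pou2af1, 1 call each way beside 1.34% higher and 1.22% lower over all start windows. Il21r was also called lower in HOM than in HET at -13.4 points pooled, but not CpG by CpG (-6.08 points, -11.9 to -0.25). Spib, an Ets factor, was higher in HOM than in HET, with 57.4% in HOM, 41.7% in HET and 48.4% in WT, and 0.634% of all start windows were higher and 2.53% lower in that comparison. CpG by CpG, Pou2af1 was called lower in HOM than in WT (-11.04 points, -17.6 to -4.44) and Gcsam, a germinal centre signalling protein, higher, whereas Cd38 was not called. These 2 calls among 26 genes stand beside 2.01% of all start windows in either direction.

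Of 30 genes of the plasma cell and unfolded protein programme, 21 could be tested, and none was called at the start window. In the body 1 of the 21 was called lower in each comparison when pooled. Over all bodies 2.85% were in HOM against WT, 0.82% in HET against WT and 2.02% in HOM against HET. There, Derl3, a factor of endoplasmic reticulum quality control, was lower in HOM than in WT (-11.5 points), with 63.0% in HOM, 72.7% in HET and 74.6% in WT. Tnfrsf13c, the BAFF receptor, was lower in HET than in WT (-14.99 points), with 45.5% in HOM, 40.4% in HET and 55.4% in WT. Hspa5, the chaperone BiP, was lower in HOM than in HET (-13.5 points pooled, -3.27 points CpG by CpG, which was not called). The median body difference of HOM from WT was -4.68 points for these 21 genes and -2.69 points for the 26 germinal centre genes, whose bodies gave no call when pooled. CpG by CpG those medians were -2.89 and -2.59 points, beside -2.87 points for all genes. By that route Derl3 was also called lower in HOM than in HET (-14.2 points), as was Fas of the germinal centre genes. That is 1 of the 21 and 1 of the 26 genes, where 0.958% of all bodies were called in either direction.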

How the data were processed

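The values are counts of methylated reads and of covering reads at each CpG, as deposited by the authors, without normalization per the file headers and values. Per the labels' protocols, DNA was sheared to an average of 800 bp, 200 ng was bisulfite converted, and paired reads were 150 bp long. Per the submitters' processing notes, builds include mm10, and the tools named for some samples are BWA 0.7.13, MethylDackel and Picard 2.3.0, and for others Bismark with Bowtie2, Trim Galore 0.2.8 and Picard 1.91. The sources used here do not give which of them made the columns, or the filters. Levels were methylated over covering counts, summed over a region. Gene spans, listed starts, strands and promoters came from RefSeq tables of GRCm38.p6, without exons, introns or untranslated regions. Islands were found from CpG positions (each CpG scored 17 and any other base -1, length over 200 bp, 6 or more CpGs per 100 bp).

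The planned model over samples fell back, as laid down with the design, on counting statistics of 1 library per genotype. Autosomal regions with at least 3 CpGs and 30 reads in every library were compared with Fisher's exact test, two-sided, on read counts, and p-values were adjusted by Benjamini-Hochberg over all regions of a class. A call needs a difference of at least 10 points and an adjusted p below 0.05. The test compares libraries, not genotypes. Intervals are 95% (Wilson for a level, Newcombe for a difference, Sato for the Mantel-Haenszel difference), cover counting error only and treat CpG reads as independent. Scripts used Python 3.11.15, numpy 2.4.6, scipy 1.17.1 and numba 0.67.0 and were tested on simulated data. The genes and lists were chosen with earlier results of these data known. All 9 genes are named, with the runs called in any comparison, the run with most CpGs or nearest the start, the CpGs of printed promoters and the called genes of the related lists. Blood samples were not analysed here. Alternatives varied the call size, the weighting and coverage of CpGs, the windows and the run limits.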

Additional observations from a re-analysis of the deposited data

How the results depend on the processing

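No paired analysis was possible because the columns carry 1 library per genotype and no replicate numbers, and for the same reason no replicate could be left out. The CpG by CpG comparison was chosen after seeing the data. Counts of start windows called in HOM against WT (1 as reported) became 2 at a call size of 5 points, and 0 at 20 points, with counts divided by the CpGs per read, with each CpG weighing the same, CpG by CpG, with windows of 500 bp on each side and at the CpG-richer end. In HET against WT (1) they became 0 at 20 points, with divided counts, with CpGs of at least 5 reads, CpG by CpG, at the CpG-richer end and at the other end, which gave 1 in HOM against HET. The median start window difference of HOM from HET (-0.46 points) was -2.11 with CpGs of at least 5 reads, -1.27 in windows of 2000 bp outside to 1000 bp inside and -2.02 at the other end. Minus the open sea difference, the median start window was 0.95 points for HOM against WT and 2.32 for HOM against HET, the body -1.30 and 0.11, and the span plus flanks -0.15 and 0.53. This setting subtracts 1 constant per comparison from every region, near-empty starts included (-3.44 points for HOM against WT and -2.77 for HOM against HET). A negative median smaller in size than that constant changes sign, as 4 of these 6 medians did.

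At 5 points, 3 bodies were called in HOM against WT, 2 in HET against WT and 1 in HOM against HET. The median body difference of HOM from WT (-4.74 points) was -2.51 with each CpG weighing the same and -2.30 CpG by CpG. For low-methylated runs (3, 3 and 2 called in HOM against WT, HET against WT and HOM against HET), 5 points gave 5 in HOM against WT, and 20 points gave 1, 1 and 0. The difference alone gave 9, 8 and 8, divided counts 0, 1 and 0, and a running level below 30% 0, 0 and 0. CpGs of at least 5 reads gave 1 in HOM against WT and 0 in HOM against HET. In HOM against HET, equal CpG weights gave 1 and runs of at least 6 CpGs gave 1. The other 99 of these values kept within their limits, and no called difference of a named start window or run reversed. Recomputed under their settings, these called differences kept the call in 50 cases and lost it in 38, and the S1pr2 run of 6 CpGs in HET against WT kept it under each of the 8 settings that left its bounds as they were. The cause of each change was not tested, apart from fewer regions or reads by construction. Depth limits the short regions most: the Irf4 run rests on 37 reads in HOM and 40 in WT.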
